A study of Mus musculus with 29 samples.

Results

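The regions described here are the widest H3K27ac peaks of unstimulated RAW264.7 cells, 932 of the 31472 H3K27ac peaks called on chromosomes 1 to 19 and X (2.96%). They were chosen by width alone, as untreated H3K27ac peaks spanning at least 10 kb, so their width and their untreated H3K27ac coverage are descriptions and not results. RAW264.7 is an established murine macrophage-like line that arose from an Abelson virus-induced tumour, and chromatin immunoprecipitation with sequencing was done on it for 7 histone marks and for the transcription factor PU.1. All groups are this 1 line: untreated cells, cells given lipopolysaccharide (LPS, the endotoxin of Gram-negative bacteria, sensed by macrophages through the receptor TLR4) at 100 ng/ml for 1 h or 4 h, cells given flavopiridol for 1 h, and cells given flavopiridol for 1 h before LPS for 4 h. Flavopiridol inhibits CDK9, the kinase that releases RNA polymerase II into elongation, and the sources used here give no dose. PU.1 was mapped in untreated cells only, and flavopiridol libraries were used for H3K4me1 and H3K36me2 only. Of 29 samples, 26 have a peak list and 3 inputs were not analysed here. Each mark and condition has 1 library, so no difference below has a replicate check and no p-value is given.

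H3K27ac is the acetylation of lysine 27 on histone H3, placed by the acetyltransferases p300 and CBP at active promoters and enhancers. Most acetylated sites are short. Long unbroken stretches of it occur where many enhancers lie side by side, as in the clusters called super-enhancers near genes of cell identity, and where acetylation runs from a promoter into the body of a highly transcribed gene. In macrophages such stretches are rich in PU.1, the lineage factor that opens enhancers for H3K4me1 and H3K27ac. The other marks separate these situations: H3K4me3 marks promoters, H3K4me1 enhancers and promoter flanks, H3K79me2 the first part of transcribed genes, H3K36me3 the rest of their bodies, H3K36me2 gene starts and intergenic chromatin, and H3K27me3 Polycomb repression.

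Detection differed between libraries in ways that touch the results below. Untreated H3K27ac peaks covered 83.6 Mb, those at LPS 1 h 73.1 Mb and those at LPS 4 h 90.7 Mb, so more coverage is available at 4 h for any region. The share of peaks whose −log10 q reached 5 was 81.9%, 76.9% and 79.2% in those 3 lists. It was 54.4% for untreated H3K4me1 and 12.8% with flavopiridol, and 53.0% at LPS 4 h and 4.02% with flavopiridol and LPS. For H3K36me2 it was 9.02% in untreated cells, 0.197% with flavopiridol, 32.5% at LPS 4 h and 0.0390% with both. A change in a single library cannot be told apart from a change in how well that library was enriched or sequenced, and the number of reads behind each list is unknown.

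The wide domains had a median width of 13682 bp, between 10008 and 74221 bp, against 1746 bp for all untreated H3K27ac peaks. Together they held 14.9 of 83.6 Mb of H3K27ac, or 17.8% of the acetylated length. Only 170 exceeded 20 kb, 45 exceeded 30 kb and 15 exceeded 40 kb. Every chromosome used had some, from 92 on chromosome 2 and 89 on chromosome 11 to 18 on chromosome 18 and 13 on chromosome X. Their share of a chromosome's H3K27ac peaks ran from 1.55% on X to 3.73%. Neighbouring H3K27ac peaks were close: the median gap from a wide domain to the next H3K27ac peak of any width was 3153 bp, and 639 of the 932 had one within 5 kb. Another wide domain lay within 10 kb of 164 of them and within 100 kb of 401. These distances are given for the wide domains only, so they do not set them apart from narrower peaks.

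The threshold falls in a continuous range of widths. The 3 narrowest members were chr9:25311137-25321144 at 10008 bp, and chr11:6481295-6491308 and chr19:12079198-12089211 at 10014 bp each. The 3 widest peaks left out were chr16:92861218-92871209 at 9992 bp, chr2:169977798-169987785 at 9988 bp and chr14:51481357-51491343 at 9987 bp. Their other marks varied as much on either side. H3K4me3 covered 3.04%, 0% and 73.7% of the 3 just inside, and 0%, 55.2% and 19.9% of the 3 just outside. PU.1 summits numbered 4, 2 and 5 inside and 6, 7 and 4 outside.

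In untreated cells the wide domains combined enhancer, promoter and gene-body marks. H3K4me1 covered 88.3% of their length, H3K79me2 55.4%, H3K36me2 42.2%, H3K36me3 36.1% and H3K4me3 29.6%, while H3K27me3 covered 0.0371%. Counted as peaks with their midpoint inside, there were 0.754 H3K4me1, 1.00 H3K4me3, 0.583 H3K79me2 and 3.87 PU.1 peaks per 10 kb. The medians per domain were 1 H3K4me1 peak and 1 H3K4me3 peak centred in it, and 6 PU.1 summits. A mean of 1.58 H3K4me1 peaks overlapped a domain. H3K4me1 covered 336 of the 932 in full, against 22738 of all 31472 untreated H3K27ac peaks.

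Compared with narrower H3K27ac peaks, the gene-body marks differed most by width. H3K79me2 covered 12.8% of the length of H3K27ac peaks under 1 kb, 20.4% at 1 to 2.5 kb, 30.9% at 2.5 to 5 kb, 39.8% at 5 to 10 kb and 55.4% in the wide domains. H3K36me3 covered 17.6%, 12.1%, 14.1% and 20.7% in the narrower classes and 36.1% in the wide domains. H3K4me3 went the other way above 5 kb, from 44.3% at 2.5 to 5 kb to 36.6% and then 29.6%. H3K4me1 stayed between 79.2% and 91.8% in the 5 classes and H3K36me2 between 34.2% and 44.0%, with the wide domains inside both ranges. Single libraries give these levels no error beyond the number of regions, which is 932 for the wide domains and 2674 for the 5 to 10 kb class.

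**Figure D1:**
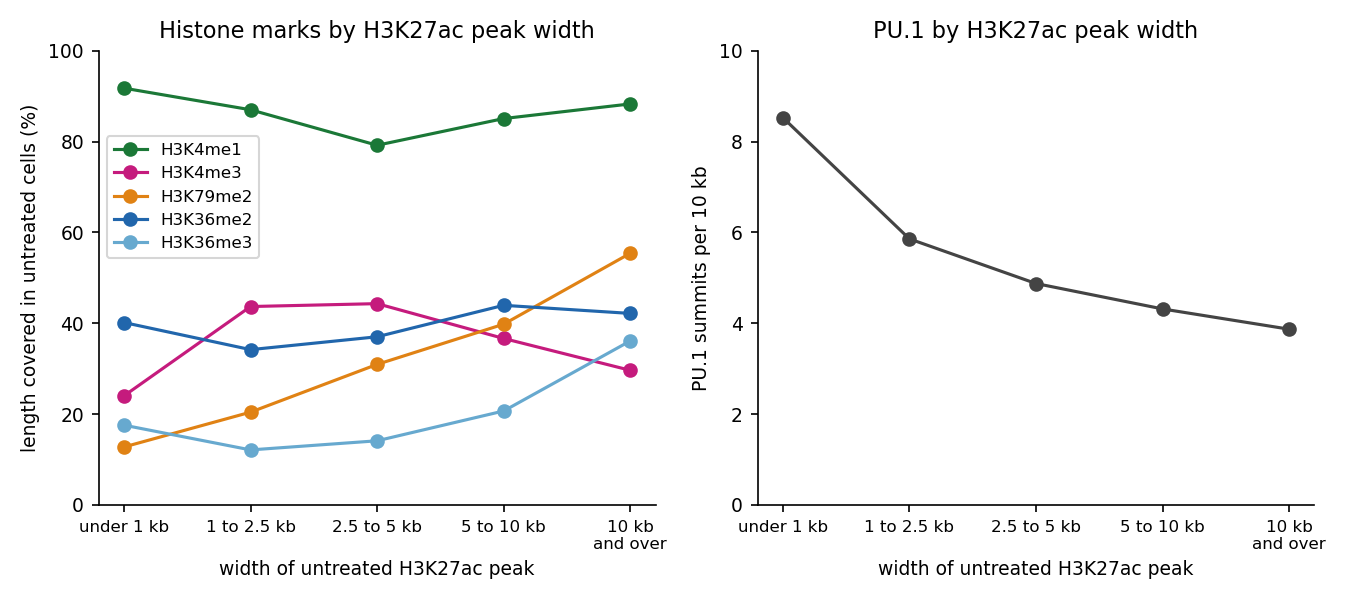
Share of length covered by 5 histone marks (left, percent) and PU.1 summits per 10 kb (right) in untreated H3K27ac peaks of 5 width classes, pooled over all peaks of a class and with 1 library per mark. H3K79me2 climbs with each class to 55.4% of the length at 10 kb and over, while PU.1 falls with each class to 3.87 per 10 kb.

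Counted by domain, H3K4me3 overlapped 838 of the 932 (89.9%, 95% Wilson interval 87.8 to 91.7, here and below for counting error only), against 53.7% of all untreated H3K27ac peaks. More than 1 H3K4me3 peak lay over 464 domains. The mean number of overlapping H3K4me3 peaks was 1.61 in the wide domains, 0.947 in the 5 to 10 kb class and 0.574 over all H3K27ac peaks. H3K79me2 overlapped 776 (83.3%, 80.7 to 85.5; 36.3% of all H3K27ac peaks), H3K36me3 742 (79.6%, 76.9 to 82.1; 27.8%) and H3K36me2 868 (93.1%, 91.3 to 94.6; 62.9%). H3K4me1 overlapped all 932, as it did 97.4% of all H3K27ac peaks. An overlap of 1 bp is met more easily by a wide region than by a narrow one, so these counts stand beside the covered lengths and not in place of them. H3K27me3 touched 14 domains (1.502%, 0.897 to 2.51), against 2.92% of all H3K27ac peaks.

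Some marks varied in opposite directions between domains and others varied together. Across the 932 domains, the share covered by H3K4me3 went with less H3K4me1 (Spearman rho −0.67) and less H3K36me2 (−0.54). H3K36me3 went with less H3K36me2 (−0.60) and more H3K79me2 (0.45). H3K4me1 went with more H3K36me2 (0.53), and H3K4me3 with more H3K79me2 (0.23). These are descriptions over domains from the same libraries, and shares of 1 length are not independent. Width was only weakly tied to composition, with rho 0.22 for H3K36me3, 0.11 for H3K79me2 and −0.09 for H3K4me3. Over 4 equal groups by width, the first from 10008 to 11358 bp and the last from 17877 to 74221 bp, H3K36me3 covered 28.2%, 29.3%, 34.3% and 43.8%. H3K79me2 covered 48.6%, 52.8%, 54.6% and 60.04% in the same order, and H3K4me3 33.6%, 33.1%, 31.0% and 25.4%.

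Pooled over the domains, the marks changed with distance from the edge. H3K4me3 covered 10.9% of the outer 500 bp, 35.2% at 2 to 3 kb from the edge and 28.7% beyond 5 kb. H3K79me2 rose steadily inward, from 43.1% to 62.6%. H3K36me2 was highest at the rim, at 54.9% of the outer 500 bp and 40.9% beyond 5 kb. Just outside, in the first 1 kb, H3K4me1 still covered 64.8%, H3K36me2 58.9%, H3K36me3 45.0% and H3K79me2 39.8%, while H3K4me3 covered 0.828%. The acetylated stretch therefore ended inside chromatin that carried the methylation marks further on, with H3K4me3 lying within it.

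PU.1 was present in 931 of the 932 domains, against 85.7% of all untreated H3K27ac peaks. It was nearly as common in the 5 to 10 kb class, at 2660 of 2674 (99.5%), and overlapped 95.9% at 2.5 to 5 kb. The domains held 5768 PU.1 summits, 5.79% of the 99565 in the list, with a median of 6 and a maximum of 24. At least 5 lay in 670 domains, against 3.03% of all H3K27ac peaks and 272 of 2674 in the 5 to 10 kb class. At least 10 lay in 104 domains and in no narrower peak. The number followed width (rho 0.65), but the density did not rise with it. Per 10 kb there were 8.53, 5.86, 4.88 and 4.32 summits in the 4 narrower classes, 3.87 in the wide domains, and 4.13, 4.05, 3.85 and 3.68 in the 4 groups by width within them. Wide domains thus held more PU.1 sites each, at a lower density than narrower H3K27ac peaks.

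Neighbouring PU.1 summits in a domain were a median of 1922 bp apart over 4837 pairs, with quartiles of 1180 and 3021 bp and a largest spacing of 15141 bp. Density was 2.26 per 10 kb in the outer 500 bp, 4.53 at 500 to 1000 bp and 3.76 beyond 5 kb, and 0.649 in the first 1 kb outside. The part of the domains under H3K4me3, 4.42 Mb, held 5.66 summits per 10 kb and the other 10.5 Mb held 3.11. PU.1 peak strength was similar across widths: the median deposited fold enrichment of their PU.1 peaks was 8.31, against 8.30 to 8.80 in the narrower classes and 5.46 at PU.1 peaks outside H3K27ac. The 3 domains with the most PU.1 per 10 kb were all among the narrower ones. They were chr2:132421455-132434058 with 10 summits in 12604 bp, chr14:51707250-51717687 with 8 in 10438 bp and chr11:61817133-61827680 with 8 in 10548 bp. The first was largely H3K4me1 (100%) with little H3K4me3 (18.5%), and H3K4me3 covered 81.8% and 68.7% of the other two.

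Chromatin states deposited by the authors, a segmentation into 27 states in steps of 200 bp, gave the same composition in other terms. The state numbers are the authors' and each is described by the untreated peak lists that cover it across the genome. Because the segmentation was built with H3K27ac, it is a description. State 17, with H3K27ac and H3K4me1 and PU.1 over 50.98% of it, took 17.9% of the wide domains and 21.9% of narrower H3K27ac peaks. State 8, with H3K27ac, H3K4me1 and H3K79me2, took 11.9% and 3.45%. State 13, in which H3K4me1 and both gene-body marks lie together, took 9.89% and 2.13%. State 23, an H3K4me3 state with little H3K79me2, took 5.65% of the wide domains and 15.4% of narrower peaks. In the segmentation of LPS 4 h, state 17 took 11.3% of the same domains and state 8 8.42%. State 5, which has H3K27ac, H3K4me1, H3K36me2 and H3K79me2, took 7.35% after 4.19% in untreated cells. Narrower peaks moved the same way, with state 17 at 13.9%, state 8 at 2.42% and state 5 at 2.22% after 1.29%. Across the genome state 5 went from 1.54 to 3.36 Mb.

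After LPS the domains kept most of their H3K27ac. At 1 h, H3K27ac peaks covered 84.3% of their length and at 4 h 88.1%. Per domain the coverage ran from 22.8% to 100% at 1 h with a median of 87.6% and a lower quartile of 74.99%, and at 4 h from 25.1% to 100% with a median of 93.3% and a lower quartile of 81.4%. No domain was without H3K27ac at either time, whereas 18.8% of all untreated H3K27ac peaks had none at 1 h and 12.9% had none at 4 h. Peaks without any were also rare in the 5 to 10 kb class, at 5 of 2674 at 1 h and 2 at 4 h. Taken as 3 counts of the total, a count of 0 in 932 allows a share of up to 0.322%.

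Few wide domains had under 50% of their length left. Under 50% was covered in 39 domains at 1 h (4.18%, 3.08 to 5.67), against 28.1% of all H3K27ac peaks, and in 29 at 4 h (3.11%, 2.18 to 4.43), against 20.3%. In the 5 to 10 kb class it was 259 of 2674 (9.69%) at 1 h and 192 (7.18%) at 4 h. At least 90% was covered in 425 domains at 1 h (45.6%, against 36.8% of all peaks) and 539 at 4 h (57.8%, against 49.7%). In the 5 to 10 kb class it was 1168 and 1504 of 2674. Coverage of the whole length was less common among the wide domains than among all peaks at both times: 100 domains at 1 h (10.7%, against 16.8%) and 188 at 4 h (20.2%, against 28.1%). The counts of wide domains under 50% depended on the threshold of the later list. With only LPS peaks at a −log10 q of at least 5 they were 113 at 1 h and 77 at 4 h.

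The coverage rose with width class, and a longer region also has less of its length near an edge. In the 4 narrower classes the coverage was 42.6%, 70.8%, 77.9% and 80.3% at 1 h and 57.8%, 77.7%, 82.8% and 84.9% at 4 h. The outer 500 bp were covered to 51.7% at 1 h in the wide domains and to 53.6% in the 5 to 10 kb peaks, and to 62.0% and 63.5% at 4 h. Beyond 5 kb from an edge the wide domains were covered to 88.3% and 91.4%.

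**Figure D2:**
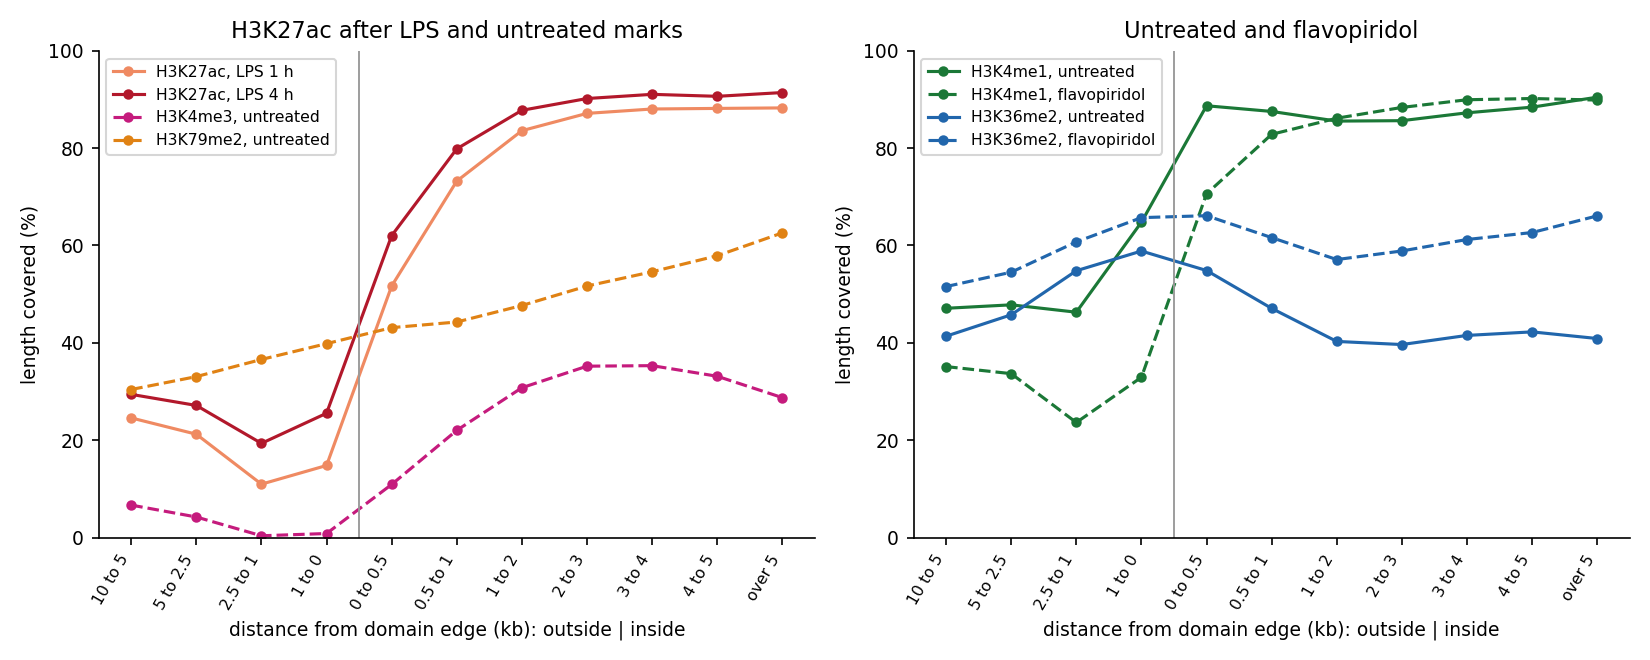
Percent of length covered by distance from the edge of the 932 wide domains, outside (left of the vertical line) and inside, pooled over both edges, in steps named in kb. H3K27ac after LPS reaches 51.7% (1 h) and 62.0% (4 h) in the outer 0.5 kb and 88.3% and 91.4% beyond 5 kb; H3K4me1 with flavopiridol is at 32.9% in the first 1 kb outside, where untreated H3K4me1 is at 64.8%.

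What was not covered at 1 h lay partly at the edges and partly in breaks. Of the 1825 uncovered stretches, 1265 were at an edge, with a median of 489 bp, and 560 were inside, with a median of 1848 bp, and edge stretches made up 47.6% of the 2.35 Mb uncovered. At 4 h there were 1490 stretches, 1049 at an edge and 441 inside. A single H3K27ac peak lay over 535 domains at 1 h, 2 peaks over 274 and 3 or more over 123, and at 4 h these counts were 601, 245 and 86. The mean number per region at 1 h was 1.60 in wide domains, 1.19 at 5 to 10 kb and 0.852 over all untreated H3K27ac peaks. At 4 h it was 1.47, 1.16 and 0.905. A peak that was itself at least 10 kb wide overlapped 566 domains at 1 h, against 3.03% of all untreated peaks, and 650 at 4 h, against 5.17%.

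From 1 h to 4 h coverage was higher in 571 domains, the same in 66 and lower in 295. A difference of at least 20 percentage points was seen upward in 81 and downward in 28. Such shifts were also seen in the narrower classes. Upward there were 2276 of 7737 under 1 kb, 2567 of 13364 at 1 to 2.5 kb, 893 of 6765 at 2.5 to 5 kb and 355 of 2674 at 5 to 10 kb. Downward there were 561, 835, 332 and 114 in the same order. At 5 to 10 kb coverage was higher in 1603, the same in 249 and lower in 822. The larger list at 4 h moves in the same direction, and its part in this was not tested.

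H3K27ac was kept most where H3K4me3 and PU.1 lay. Within the H3K4me3-covered part of the domains H3K27ac covered 98.2% at 1 h and 99.1% at 4 h, and in the rest 78.4% and 83.5%. Under PU.1 peaks it covered 95.7% and 97.4%, and elsewhere 80.1% and 84.7%. The parts under H3K36me2 were covered to 77.3% and 81.2%, those without it to 89.4% and 93.2%. Under H3K36me3 the values were 77.8% and 84.8%, and without it 87.9% and 89.97%. For H3K79me2 the parts with and without it were alike at 1 h, at 84.2% and 84.3%, and 89.8% and 85.9% at 4 h. H3K4me3 and PU.1 were sparse in the outer 500 bp and H3K36me2 was highest there, so position moves with these values, and its part was not tested.

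Wide domains with H3K4me3 and those without differed in the same sense. The 838 domains with an H3K4me3 peak were covered by H3K27ac to 85.5% at 1 h and 89.4% at 4 h, and the 94 without one to 72.2% and 74.9%. Under 50% was covered in 25 of the 838 and 14 of the 94 at 1 h, and in 18 and 11 at 4 h. The 94 domains without H3K4me3 were slightly narrower (median 12869 against 13759 bp), held 3.29 PU.1 summits per 10 kb against 3.93, and had more H3K36me2 (60.3% against 40.4%) and less H3K79me2 (38.7% against 57.1%). Both groups had H3K4me1 over most of their length, 93.9% and 87.7%.

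**Figure D3:**
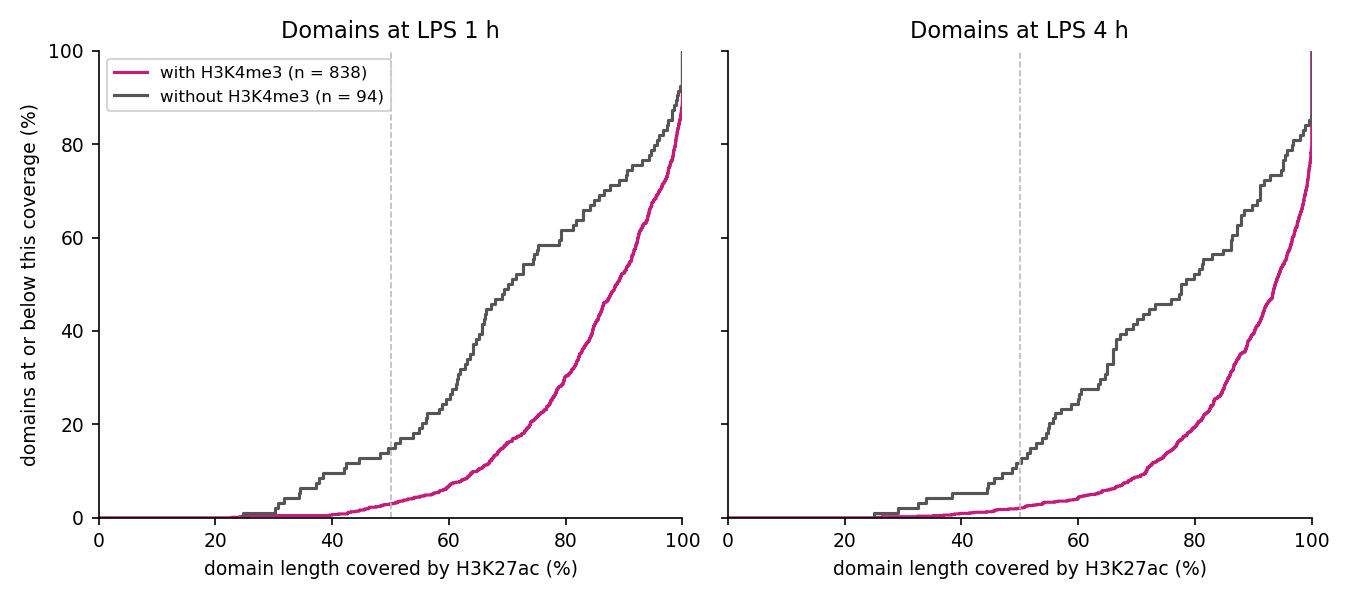
Cumulative share of wide domains (percent, vertical) at or below a given H3K27ac coverage (percent of the domain's untreated length, horizontal) at LPS 1 h and 4 h, for the 838 domains with and the 94 without an untreated H3K4me3 peak. The curve of domains without H3K4me3 lies above the other at both times, with medians of 70.4% and 78.1% against 88.7% and 93.7%.

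Split further by H3K79me2, the mark of transcribed gene starts, the 726 domains with both marks had the highest coverage, 86.0% at 1 h and 90.5% at 4 h. The 112 with H3K4me3 alone stood at 81.1% and 80.7%. The 50 with H3K79me2 alone, which carried H3K36me3 over 68.2% of their length, were covered to 67.7% at 1 h and 74.2% at 4 h. The 44 with neither mark were covered to 77.6% and 75.7%, with H3K36me2 over 80.8% of their length. Pooled coverage at 4 h was above that at 1 h in both groups with H3K79me2. In the 112 domains with H3K4me3 alone the pooled values nearly matched, and the median was 85.4% at 1 h and 85.5% at 4 h, and in the 44 with neither mark both the pooled value and the median (80.5% and 77.7%) were lower at 4 h. All these groups share the same 3 H3K27ac libraries.

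Wide H3K27ac peaks of the LPS lists overlapped the untreated ones in part, in lists that differ in total length as given above. At 1 h 741 H3K27ac peaks were at least 10 kb wide, of which 574 overlapped an untreated wide domain and 167 did not. At 4 h there were 1080, of which 643 overlapped one and 437 did not. Shared length made up 57.8% of the untreated domains and 75.1% of the wide peaks at 1 h, and 67.4% and 56.4% at 4 h. Of the 437 wide peaks at 4 h away from untreated wide domains, 160 had under 50% of their length covered by any untreated H3K27ac peak and 17 had none. The domains were chosen by width in the untreated list, so the reverse reading is given too: wide peaks of 1 h were covered by untreated H3K27ac to 90.5% and by that of 4 h to 95.6%, and wide peaks of 4 h to 78.4% by untreated and 81.1% by 1 h H3K27ac.

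H3K27ac was also called in the flanks. In the first 1 kb outside the domains, where the choice of the domains leaves no untreated H3K27ac, H3K27ac covered 14.8% at 1 h and 25.5% at 4 h. At 4 h 20 wide peaks each joined 2 or more untreated wide domains, after 7 at 1 h.

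H3K4me1, H3K4me3, H3K79me2 and H3K36me3 stayed within 3.91 points of domain length of their untreated coverage at both LPS times. H3K4me1 covered 88.3% untreated, 86.3% at 1 h and 86.8% at 4 h, H3K4me3 29.6%, 28.4% and 31.4%, H3K79me2 55.4%, 57.4% and 59.3%, and H3K36me3 36.1%, 34.9% and 33.6%. H3K36me2 covered more at each time, 42.2%, 50.996% and 54.4%, and was higher at 4 h than before in 749 domains and lower in 127. Of all 31472 untreated H3K27ac peaks, 12476 were higher, 3107 lower and 15889 the same. The H3K36me2 list as a whole also grew, from 281.1 to 320.5 and 348.8 Mb.

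The 5 widest domains kept nearly all their H3K27ac at 4 h with 1 exception. The widest, chr7:87155746-87229966, spans 74221 bp with 20 PU.1 summits, and H3K79me2 ran over 81.7% and H3K36me3 over 57.1% of it. In untreated cells its 6 H3K4me3 peaks covered 26.4%, the longest of them 11523 bp. H3K27ac covered 92.3% of it at 1 h in 3 peaks, of which the widest was 32250 bp, and 97.8% at 4 h in 1 peak of 72609 bp. The next, chr9:65370603-65431634 (61032 bp, 22 PU.1 summits), was covered to 99.99% and 99.95% by a single peak at each time. In chr9:116035452-116093196 (57745 bp, 23 summits), coverage was 82.2% in 6 peaks at 1 h and 89.0% in 4 peaks at 4 h. The remaining 2 each held 24 PU.1 summits, the most of any domain. They were chr18:36857389-36912327 (54939 bp), covered to 92.7% and 99.3%, and chr3:95427616-95481535 (53920 bp), covered to 98.8% and 99.4%.

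The lowest coverage at 1 h was found in chr2:165831531-165847330, a 15800 bp domain wholly under H3K79me2 and H3K4me1. Only 22.8% of it stayed under H3K27ac at 1 h, in 4 short peaks of which the widest was 1422 bp, and 77.1% was covered again at 4 h, in 1 peak of 12180 bp. The other two did not return to that level. In chr16:18409996-18421058 coverage was 24.2% at 1 h and 32.4% at 4 h, and in chr10:41539969-41552488 24.6% and 38.3%.

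At 4 h the lowest values were 25.1% in chr11:6481295-6491308, 25.5% in chr16:23277802-23288460 and 26.4% in chr4:47358994-47373530. All 3 had been higher at 1 h, at 54.8%, 42.8% and 47.5%. The first has no H3K4me3 and is under H3K36me3 for 86.9%, and the other two have H3K4me3 over 13.2% and 28.5%.

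At 4 h the 3 widest domains without an H3K4me3 peak were covered less than any of the 5 widest, and at 1 h this held for 2 of the 3. They were chr9:47529631-47569879 (40249 bp), chr8:129384173-129412268 (28096 bp) and chr4:134169867-134197338 (27472 bp), with 8, 8 and 9 PU.1 summits. H3K27ac covered 62.7%, 98.8% and 61.2% of them at 1 h and 50.2%, 60.1% and 55.7% at 4 h. The domain on chromosome 8 carries neither H3K79me2 nor H3K36me3. At 1 h nearly all of it lay under an H3K27ac peak of 44093 bp that also ran over the neighbouring untreated peak, and at 4 h 2 peaks lay in it, the wider of them 11511 bp. With flavopiridol its H3K4me1 fell from 95.2% to 57.1%, in 3 peaks. The 2 longer of these, from 3.07 to 13.4 kb and from 20.2 to 25.3 kb after the domain start, lay within the 2 H3K27ac peaks of LPS 4 h, from 2.60 to 14.1 kb and from 20.1 to 25.5 kb.

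**Figure D4:**
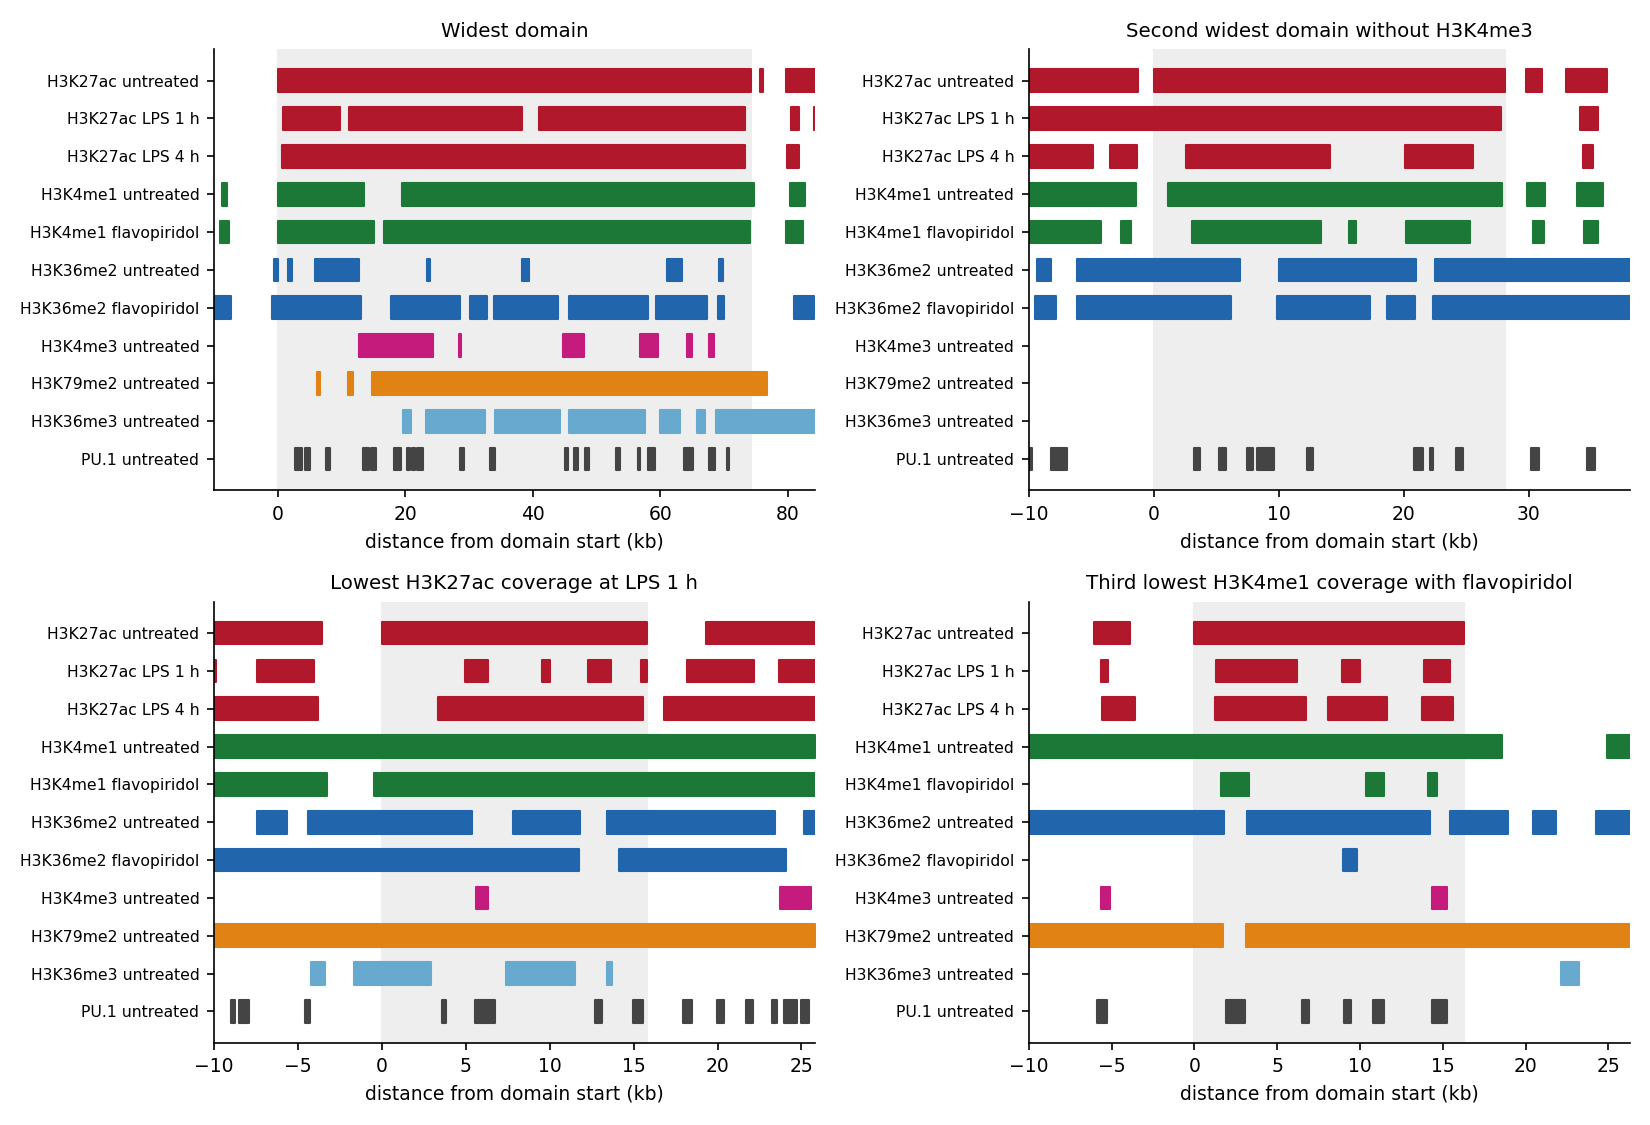
Deposited peaks of 11 libraries (rows, coloured by mark) along 4 named domains and 10 kb on either side, in kb from the domain start, with the domain shaded. The widest domain is 1 H3K27ac peak again at LPS 4 h, and the domain without H3K4me3 holds 2 peaks at 4 h. The third is broken into 4 short peaks at 1 h. With flavopiridol, H3K4me1 covers 20.9% and H3K36me2 5.07% of the length of the fourth.

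The 3 widest of the 14 domains that touched H3K27me3 differed in how much H3K27ac they had after LPS. The widest was chr14:26276965-26310056 (33092 bp, H3K27me3 over 0.332%), which at 4 h lay wholly inside an H3K27ac peak of 77294 bp. The next, chr11:117806373-117831980 (25608 bp), was covered in full at both times by peaks of 31672 and 34452 bp. The third, chr6:48969636-48993085 (23450 bp), had H3K27me3 over 8.45%, and H3K27ac covered 90.3% of it at 1 h and 66.1% at 4 h.

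With flavopiridol alone, H3K4me1 in the wide domains stayed near its untreated coverage. It covered 88.3% in untreated cells and 87.6% with the drug, with 394 domains higher, 440 lower and a median difference of 0. Of all 31472 untreated H3K27ac peaks, 5351 were higher, 12959 lower and 13162 the same. A fall of at least 20 points was seen in 98 domains (10.5%, 8.71 to 12.6), against 15.8% of all H3K27ac peaks, and a rise as large in 79 (8.48%), against 8.43%, which is the background. At least 50% was covered in 913, against 85.6%. Of the length under H3K4me1 before the drug, 91.0% was still covered in the wide domains, 89.2% in narrower H3K27ac peaks and 63.7% over the whole H3K4me1 list, which went from 192.1 to 143.7 Mb. These values hold for the lists as deposited. With only peaks at a −log10 q of at least 5, H3K4me1 with flavopiridol covered 4.79% of the domains, 62.2 points less than untreated H3K4me1 at the same threshold.

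H3K4me1 differed most at the rim and beyond it. In the first 1 kb outside the domains H3K4me1 covered 64.8% without and 32.9% with flavopiridol, in the outer 500 bp 88.7% and 70.6%, and beyond 5 kb inside 90.5% and 89.9%. Within the domains the parts under PU.1 were covered to 95.2% with the drug and the rest to 84.9%. Untreated H3K4me1 was not split in this way, so these 2 values show no change with the drug. PU.1 was also sparse in the outer 500 bp, and the part of position was not tested. A mean of 1.58 H3K4me1 peaks overlapped a domain without and 1.64 with the drug.

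When LPS followed, the drug went with less H3K4me1. Cells given both had 4 h of LPS after 1 h of flavopiridol. Here and below, LPS therefore cannot be told apart from the longer time since the drug. At LPS 4 h H3K4me1 covered 86.8% of the domains without and 79.5% with flavopiridol, and it was lower with the drug in 596 domains and higher in 300. Among all 31472 H3K27ac peaks it was lower in 17804, higher in 4993 and the same in 8675. A fall of at least 20 points was seen in 199 (21.4%, 18.8 to 24.1), against 29.4% of all H3K27ac peaks, and a rise in 68 (7.30%), against 8.31%. Of the H3K4me1 length at LPS 4 h, 83.5% remained in the wide domains, 79.6% in narrower H3K27ac peaks and 49.8% over the whole list. The 94 domains without H3K4me3 had 93.9% before and 78.6% with the drug, and 93.8% and 68.1% under LPS. The 838 with H3K4me3 had 87.7% and 88.5%, and 86.1% and 80.7%.

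H3K36me2 covered more of the wide domains with flavopiridol in the deposited lists. Coverage was 42.2% in untreated cells and 62.7% with the drug, with 784 domains higher, 123 lower and a median difference of 16.8 points. Among all 31472 H3K27ac peaks, 10429 were higher, 7136 lower and 13907 the same. A rise of at least 20 points was seen in 417 domains (44.7%, 41.6 to 47.9), against 16.5% of all H3K27ac peaks, and a fall in 11 (1.18%), against 10.3%. Narrower peaks differed less, with 40.2% and 40.0% under 1 kb, 34.2% and 35.6% at 1 to 2.5 kb, 37.0% and 41.9% at 2.5 to 5 kb and 44.0% and 54.7% at 5 to 10 kb. This increase depended on weak peaks: restricted to a −log10 q of at least 5, the difference turned to −3.05 points and no domain rose by 20. Only 0.197% of H3K36me2 peaks with flavopiridol pass that value, so a rise in H3K36me2 cannot be told apart from a difference in detection between the 2 libraries.

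**Figure D5:**
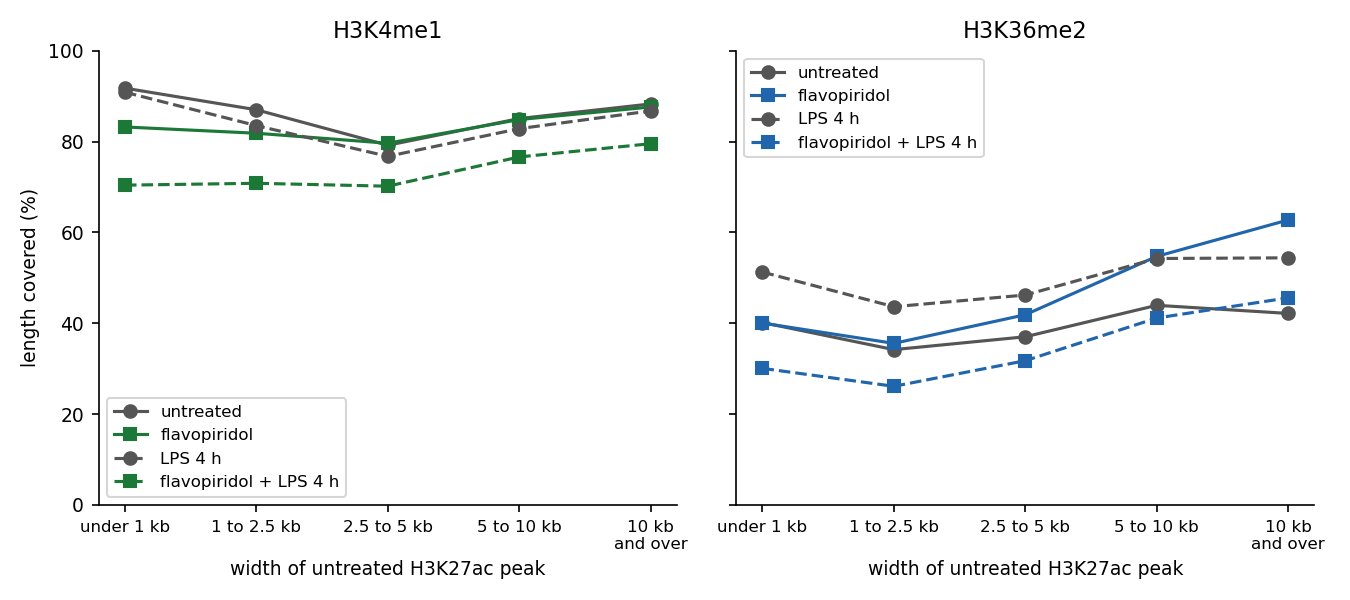
Percent of length covered by H3K4me1 (left) and H3K36me2 (right) in untreated H3K27ac peaks of 5 width classes, without the drug (grey circles) and with flavopiridol (coloured squares), for cells without LPS (solid) and at LPS 4 h (dashed), 1 library each. H3K36me2 with flavopiridol alone is 20.6 points above untreated at 10 kb and over, and with LPS 8.81 points below LPS alone.

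The length called under H3K36me2 only with flavopiridol was not spread evenly over the domains, and narrower H3K27ac peaks showed the same unevenness. Of the 8.62 Mb without H3K36me2 in untreated cells, 3.50 Mb were covered with the drug, and 0.431 Mb of the 6.29 Mb with it were no longer covered. The newly covered share was 55.7% where untreated H3K36me3 lay and 28.8% elsewhere, 47.3% with and 30.4% without H3K79me2, and 26.1% with and 52.9% without H3K4me3. In narrower H3K27ac peaks it was 48.6% with and 13.5% without H3K36me3, 26.4% and 16.4% for H3K79me2, and 8.19% and 36.5% for H3K4me3. With flavopiridol H3K36me2 covered 66.1% of the outer 500 bp, 57.1% at 1 to 2 kb from the edge and 66.1% beyond 5 kb, where it covered 54.9%, 40.3% and 40.9% in untreated cells. In the widest domain of all, H3K36me2 went from 16.3% to 77.7%.

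With LPS the order was the reverse. H3K36me2 covered 54.4% of the domains at LPS 4 h and 45.6% with flavopiridol before LPS, with 260 domains higher and 647 lower. Among all 31472 H3K27ac peaks, 3329 were higher, 15208 lower and 12935 the same. A fall of at least 20 points was seen in 248 (26.6%, 23.9 to 29.5), against 27.7% of all H3K27ac peaks, and a rise in 47 (5.04%), against 3.79%. Those shares are near the background. The list went from 348.8 to 230.0 Mb.

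The 3 domains with the least H3K4me1 with flavopiridol differed from one another. The lowest H3K4me1 coverage with flavopiridol was in chr7:125923569-125935182, the 1 domain without PU.1, which lies wholly under H3K36me3. Its H3K4me1 was 38.4% without and 3.58% with the drug, and its H3K36me2 7.55% and 68.0%. The next, chr6:91676687-91691377, was also wholly under H3K36me3, with 1 PU.1 summit, and had 26.1% and 20.0% H3K4me1. The third, chr2:101992337-102008624, was of another kind, with H3K79me2 over 91.4%, no H3K36me3 and 5 PU.1 summits. H3K4me1 covered it in full in untreated cells and at LPS 4 h, and covered 20.9% with flavopiridol and 20.6% with flavopiridol and LPS. H3K36me2 covered 83.9% and 100% without and 5.07% and 4.97% with the drug, against the direction of most domains without LPS. In chr6:48969636-48993085, the domain with the most H3K27me3 of the 3 named for it, H3K36me2 likewise went from 60.9% to 0% with flavopiridol.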

How the data were processed

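Peak lists of 26 libraries of RAW264.7 cells were used as the authors deposited them. Per the submitters' processing notes, Bowtie 1.0.1 aligned the reads, the build was mm9 and MACS2 called the peaks. Its version, its settings, the control used, any pooling and the read totals were not given in the sources used here, and depth per sample is therefore unknown. The histone peaks are of the broad kind, while PU.1 peaks come with summits. Each peak carries a deposited score, a deposited fold enrichment, a ratio to the background of the peak caller, and deposited −log10 p and −log10 q values. Only PU.1 fold enrichment and the −log10 q threshold of the alternatives were used, and otherwise the intervals alone. The authors also deposited chromatin states, given as state names and not as numbers to be averaged. 0 columns of the files were left unmapped to a sample.

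Peaks on chromosomes 1 to 19 and X were kept, and 7 untreated H3K27ac peaks elsewhere were left out. Of PU.1 lines with the same interval, 1 was kept, with the summit of highest fold enrichment. Coverage is the summed length under a list's peaks over the summed length of the domains. Density counts peak midpoints, or PU.1 summits. An overlap is 1 bp or more. Shares have 95% Wilson intervals. No test was run, since each condition has 1 library. The interval code was tested on simulated data. The members, classes and lists were chosen with earlier results of these data known. Named regions are the 5 widest, the 3 with most PU.1 per 10 kb, the 3 with least H3K27ac at each LPS time, the 3 with least H3K4me1 with flavopiridol, the 3 widest without H3K4me3, the 3 widest with H3K27me3, and the 3 on either side of the threshold. Alternatives were thresholds of 8 and 15 kb, a −log10 q of at least 5, peaks of at least 1 kb, any overlap, all PU.1 lines, medians over domains and merging of nearby peaks. Coordinates are 1-based mm9 positions as in the lists. Neither sequence nor gene annotation of mm9 was used here, and no domain is assigned to a gene. Python 3.11.15, numpy 2.4.6, pandas 2.3.3 and matplotlib 3.10.9 were used.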

Additional observations from a re-analysis of the deposited data

How the results depend on the processing

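Of 84 alternative values, 58 kept their direction and moved by less than the 95% Wilson interval over 932 domains (shares of length) or by less than 1.5 times (counts, densities and differences). That interval served only as a yardstick, since a share of length is not a count of domains and its error was not measured. A width of 8 kb gave 1514 domains and 15 kb 372. Merging within 1 kb joined nothing, since the smallest gap between H3K27ac peaks of a list was 1205 bp. Its values could not move, and they are among the 58 for that reason alone. Merging within 2.5 kb was therefore added after the data were seen. It gave 1490 domains, of which 127 were under 50% covered by H3K27ac at 1 h and 92 at 4 h, with 81.5% of the length covered at 1 h. Medians over domains were 87.6% and 93.3% for H3K27ac at 1 h and 4 h, 90.5% for H3K4me1 with flavopiridol and 82.9% with flavopiridol and LPS, and the median differences of H3K4me1 were 0 and −4.78 points. Over the length with H3K4me1 in the list without the drug the coverages were 91.0% and, with LPS and added after the data were seen, 83.5%. At 15 kb the H3K4me1 difference without LPS was −1.71 points. A −log10 q of at least 5 moved most values. H3K27ac then covered 79.9% at 1 h and 84.9% at 4 h, with 113 and 77 domains under 50%. H3K4me1 with flavopiridol covered 4.79% and with LPS 0.903%, which is 62.2 and 61.3 points below the lists without the drug (differences of −62.2 and −61.3). The H3K36me2 difference turned to −3.05 points without LPS, with 0 domains 20 points higher, and was −16.3 points with LPS. The H3K36me2 alternatives were added after the data were seen. Which peaks that threshold removes, and the cause of the shifts it gives, was not tested. No paired analysis was possible because each mark and condition has 1 library. Intervals cover counting error only, and unknown read depth limits each comparison between lists.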
